A study of Mus musculus with 21 samples.

Results

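STAG2 was knocked down in mouse embryonic stem cells (mESCs) that lacked PDS5A, and the comparison described here set the 3 libraries of Pds5a-KO siStag2 mESCs against the 3 libraries of Pds5a-KO siGLO mESCs. These 6 libraries were chosen by their labels from the 21 of the series, which hold 7 conditions of 3 libraries each. Both groups were the v6.5 male mESC line with Pds5a knocked out by CRISPR, transfected for 48 h with 50 nM of an siRNA against Stag2 or with 50 nM of siGLO, a transfection control, and the RNA was poly-A selected. The knockout was a single clone in all 6 libraries, so the spread between replicates does not hold differences between clones. No WT mESCs with siStag2 are analysed here, so an effect of siStag2 in any mESC and one that needs the loss of PDS5A cannot be told apart. The siStag1 and siPds5b libraries, 3 of each and also in Pds5a-KO mESCs, were used to show where the response to siStag2 differed.

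Cohesin is a ring built of SMC1A, SMC3 and RAD21 that extrudes and holds loops of DNA and keeps sister chromatids together. STAG1 and STAG2 are alternative subunits built of HEAT repeats that bind RAD21 and take part in loading on DNA and in contacts with CTCF, the protein at which many loops stop. PDS5A and PDS5B are another alternative pair of HEAT repeat subunits, linked to the release of cohesin and to the acetylation of SMC3. In mESCs grown in serum, cells move between a naive state, marked by transcription factors such as ESRRB, KLF4, PRDM14 and NANOG, and states closer to differentiation, and many of the genes for these factors are controlled by distal enhancers.

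Gene counts summed to between 20009068 and 21360847 in a siGLO library and to between 17311090 and 19855380 in a siStag2 library, so the siStag2 libraries were all shallower. Values below are normalised counts, which are raw counts after TMM normalisation, set to the mean effective library size over the series, 19816922. Libraries with the same replicate number tended to deviate together in both groups. A fit that blocks on replicate number is therefore quoted beside the main counts and for calls it changed in lists below. Not every call that it changed is given. It set 1 shift per replicate number for all 21 libraries, so it is not a paired fit of siStag2 and siGLO alone. The shift of genes with transcript length differed between libraries. Among 11029 genes with a mean log2 CPM (counts scaled to the depth of the library) above 2, the median shift from the siGLO mean, on the log2 scale, was higher in the longest quintile of transcripts than in the shortest quintile by 0.48, 0.09 and 0.26 in siStag2 replicates 1 to 3, against 0.01, -0.12 and 0.13 in siGLO replicates 1 to 3. The siStag2 replicate 1 and 3 libraries lay above all 3 siGLO libraries in this measure, replicate 1 farthest, and the main counts below are also given without replicate 1. The siStag2 replicate 2 library lay within the siGLO range. Libraries without siStag2 varied too, at 0.56, 0.39 and 0.17 in Pds5b-KO siGLO replicates 1 to 3 and at 0.09, 0.02 and 0.09 in WT siGLO. The part of transcript length in the results was not tested beyond the refit with a length correction given beside them.

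Stag2, on chromosome X from 42149317 to 42277185 of mm10 (plus strand), was read first because it checks the knockdown. Its normalised counts were 3561, 2930 and 3275 in siGLO replicates 1 to 3 and 851, 954 and 821 in siStag2 replicates 1 to 3. All 3 siStag2 libraries were below all 3 siGLO libraries, and the mean level fell to 26.9% of the siGLO mean (log2 fold change -1.90 ± 0.10 (SE), adjusted p = 3.48e-11). Without any single library the log2 fold change stayed between -1.97 and -1.82. Stag2 was also below its level in siStag1 (4095 ± 549.5, SD, n = 3) and siPds5b mESCs (4157 ± 343).

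No other measured cohesin gene passed the test. Stag1, the paralog of Stag2, was at 2515, 2293 and 2475 in siGLO and at 2791, 2553 and 2761 in siStag2. These libraries did not overlap, but the difference was small and missed the threshold (log2 fold change 0.15 ± 0.082 (SE), adjusted p = 0.239), and it was 0.04 with the length correction. Pds5a was at 4786, 3788 and 4239 in siGLO and at 4686, 4398 and 4349 in siStag2, with a mean of 5059 ± 295 (SD, n = 3) in WT siGLO. The transcript remained in the knockout, so its count does not check the loss of the protein. The log2 fold change of Pds5a was 0.07 and turned to -0.11 with the length correction, with neither value past the threshold. Pds5b was at 0.18 (adjusted p = 0.306), Smc3 at 0.05 and Rad21 at -0.13. Nipbl, the loader of cohesin, was at 2478, 2013 and 2503 in siGLO and 3434, 2515 and 2811 in siStag2, without overlap (0.33 ± 0.10, adjusted p = 0.0549), and it did not pass the test either. Over the 11 ring and HEAT repeat genes the median log2 fold change was 0.05, and over the 13 genes of loading, release, acetylation and CTCF it was 0.02, beside 0.01 over all 14963 genes tested.

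**Figure D1:**
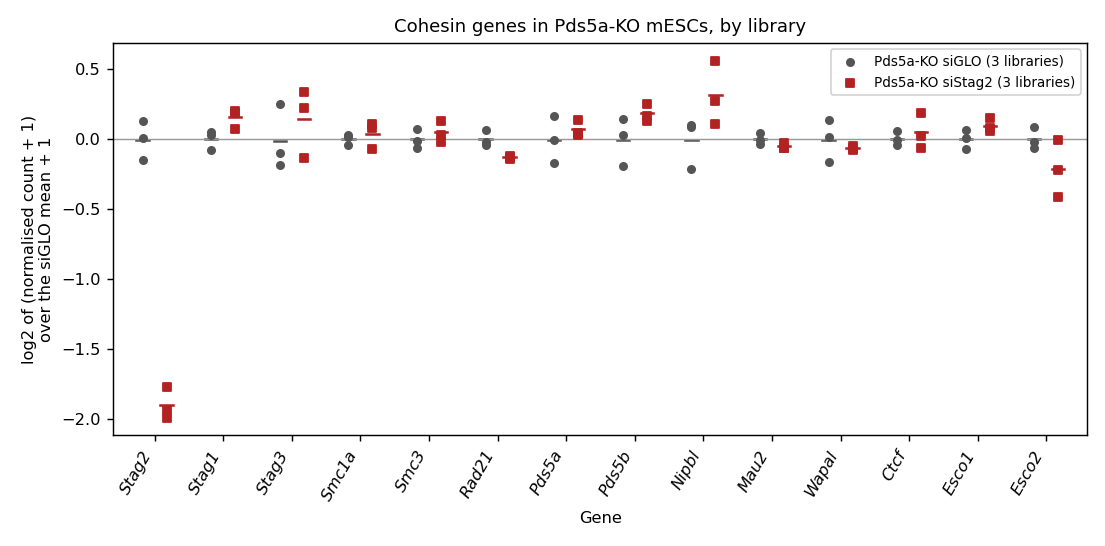
Cohesin genes in Pds5a-KO mESCs, as the log2 of each library's normalised count plus 1 over the siGLO mean plus 1. Each point is a library (circles siGLO, squares siStag2, 3 each) and bars are means. Stag2 lies near -1.9 in siStag2, and the means of the other genes lie between -0.3 and 0.4.

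Of 14963 genes tested with edgeR, 335 passed an adjusted p of 0.01 between siStag2 and siGLO and are called differentially expressed genes (DEGs). In siStag2, 145 genes were higher (0.969% of those tested) and 190 were lower (1.27%). These shares are the background for the counts of DEGs in each list of genes below. With the replicate block 363 were higher (2.43%) and 314 were lower (2.1%), and all 335 DEGs were among them with the same sign. Most changes were modest, with a median size of 0.555 on the log2 scale, and 18 of the higher and 29 of the lower DEGs changed by a log2 fold change of at least 1. The 3 siStag2 libraries did not overlap the 3 siGLO libraries for 334 of the 335 DEGs, against 26.4% of all genes tested. The DEGs were called from these same libraries, so this separation largely follows from the call. It adds no support to the call, here or for the single DEGs below.

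The number of DEGs changed with the library left out. Without siStag2 replicate 1 there were 68 DEGs, 13 higher and 55 lower, without siStag2 replicate 3 there were 158, without siGLO replicate 1 there were 115 and without siGLO replicate 2 there were 128. Of the 335 DEGs, all kept their sign and 53 stayed DEGs whichever of the 6 libraries was left out, 10 of them higher and 43 lower. The length correction gave 104 higher and 192 lower DEGs, and 216 of the 335 were among them. Before that correction, the longest quintile of transcripts held 83 of the higher and 10 of the lower DEGs, and the shortest quintile held 8 of the higher and 55 of the lower.

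**Figure D2:**
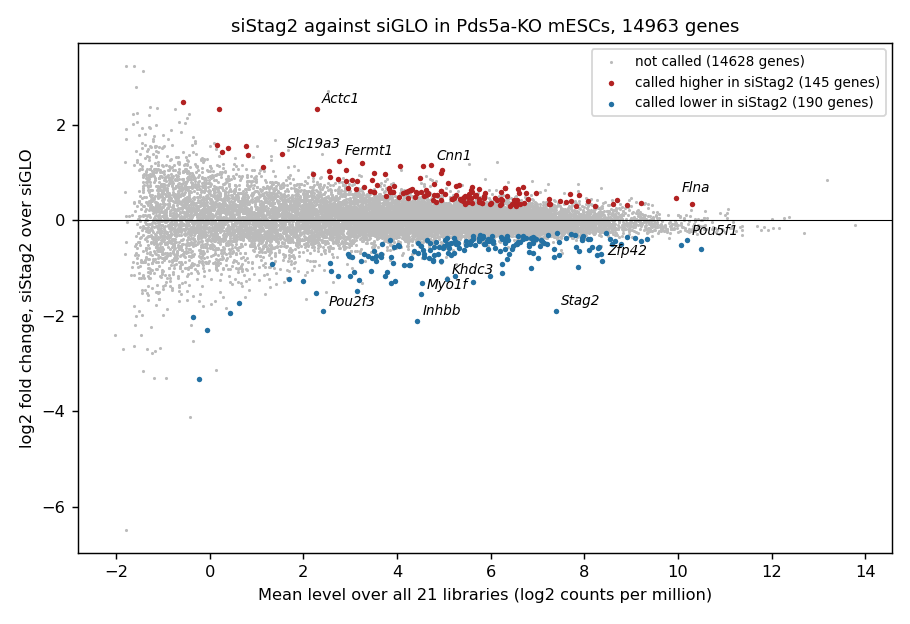
Log2 fold change of siStag2 over siGLO in Pds5a-KO mESCs against the mean level over all 21 libraries in log2 CPM, 1 point per gene. Red points are the 145 DEGs that were higher, blue points the 190 that were lower and grey points the genes that did not pass, and the DEGs lie mostly within 1 unit of 0.

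Genes of the naive pluripotency network fell. Of 18 naive factors measured, 11 were lower DEGs and none was higher, beside 1.27% of all genes called lower, and all 18 had a negative log2 fold change (median -0.61). With the replicate block 14 were lower. The list was chosen with earlier results of these data known, so its share is a description only. The summed level of the 18 genes was between 43470 and 45700 normalised counts in siGLO and between 27580 and 27900 in siStag2. From a bulk sample, fewer cells that express these genes and less RNA of them per cell cannot be told apart. Without siStag2 replicate 1, 8 of the factors were lower DEGs, and without siGLO replicate 1 there were 7. The length correction gave 10 lower DEGs in the list, of which 9 were among the 11.

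Esrrb, an orphan nuclear receptor of the naive network, was at 6206, 5881 and 5824 in siGLO and at 3488, 3578 and 3776 in siStag2. Its libraries were narrow within each group and far apart between them (log2 fold change -0.72 ± 0.078 (SE), adjusted p = 4.86e-06). Zfp42, known as Rex1 and widely used as a marker of the naive state, was at 8364, 7255 and 6620 in siGLO and at 3973, 4616 and 3787 in siStag2 and did not overlap (log2 fold change -0.85 ± 0.098 (SE), adjusted p = 1.3e-05). Tdh, the threonine dehydrogenase on which mESCs depend for threonine catabolism, was at 4754, 4587 and 4458 in siGLO and at 2237, 2419 and 2352 in siStag2, which is 50.8% of the siGLO mean (log2 fold change -0.98 ± 0.11 (SE), adjusted p = 8.23e-06).

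The largest falls in the network were those of Prdm14, Tbx3 and Nr0b1. Prdm14, a regulator of the naive state and of germ cells, was at 289.5, 312 and 336 in siGLO and at 128, 117 and 146 in siStag2 (log2 fold change -1.26 ± 0.17 (SE), adjusted p = 0.000133). Tbx3, a T-box factor, was at 513, 679 and 758 in siGLO and at 273, 276 and 314 in siStag2 (log2 fold change -1.18 ± 0.17 (SE), adjusted p = 0.000391). Nr0b1, the nuclear receptor DAX1, was at 1998, 1689 and 1414 in siGLO and at 733, 883 and 748 in siStag2 (log2 fold change -1.11 ± 0.15 (SE), adjusted p = 0.00026). In these 3 genes the highest siStag2 library was below the lowest siGLO library. With Esrrb, Zfp42, Tdh and Klf4 they were the 7 naive factors that stayed DEGs whichever library was left out.

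Klf4, a Krüppel-like factor downstream of LIF, was at 1707, 1626 and 1622 in siGLO and 1228, 1099 and 1167 in siStag2 (log2 fold change -0.50 ± 0.078 (SE), adjusted p = 0.000418). Nanog was at 5658, 6471 and 6691 in siGLO and 3859, 4084 and 4647 in siStag2, again without overlap (log2 fold change -0.58 ± 0.13 (SE), adjusted p = 0.00926). Its adjusted p lay close to the threshold, and it was no longer past it when any 1 of the 6 libraries was left out, with log2 fold changes between -0.66 and -0.52, or with the length correction (-0.52, adjusted p = 0.0157). With the block the adjusted p was 4.82e-05. Jam2, a junctional adhesion molecule, Nr5a2, a nuclear receptor, and Fbxo15, an F-box protein, fell by 0.82, 0.50 and 0.49 on the log2 scale, and stayed DEGs in 4, 2 and 2 of the 6 fits without a library. Tcl1, Klf2 and Dppa3 were past the threshold only with the block (adjusted p = 0.00785, 0.00706 and 8.87e-05). Klf5, at -0.09, and Gbx2, at -0.35, did not pass in either fit, nor did Tfcp2l1, at -0.62, and Tet2, at -0.25.

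In WT siGLO mESCs the 18 genes summed to between 69550 and 72170 normalised counts, above all Pds5a-KO siGLO libraries. Esrrb averaged 10700 ± 494 (SD, n = 3) in WT siGLO, and the log2 fold change of Pds5a-KO siGLO over WT siGLO was -0.84 (adjusted p = 2.73e-08). For Klf4 it was -1.03 (adjusted p = 1.13e-09) and for Nr0b1 -0.29 (adjusted p = 0.153). The Pds5a-KO siGLO libraries are used in both comparisons, so the values are given side by side only. Dppa3, a maternal factor, went the other way, with 177 ± 36.8 in WT siGLO and 1072 ± 239.6 in Pds5a-KO siGLO mESCs.

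**Figure D3:**
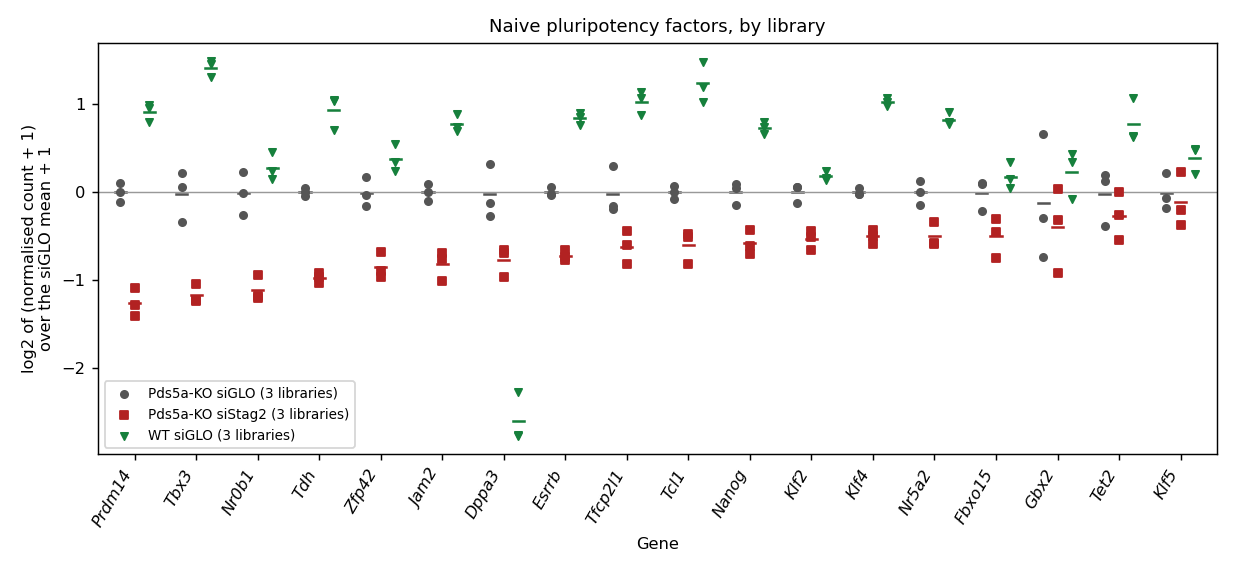
The 18 naive pluripotency factors, as the log2 of each library's normalised count plus 1 over the mean of Pds5a-KO siGLO plus 1. Circles are Pds5a-KO siGLO, squares Pds5a-KO siStag2 and triangles WT siGLO, with 3 libraries each and bars for means. The siStag2 means are below 0 for all 18 genes, and the WT means are above 0 for all of them but Dppa3.

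The promoter of Nanog holds a known composite site for the POU factor OCT4 and SOX2, and it is shown because Nanog and Pou5f1 both fell. The 250 bases before the first RefSeq start of Nanog, chr6:122707239-122707488 (plus strand, GRCm38.p6, the assembly of mm10), carry the letters TTTGCAT, any base and ACAA, in capitals, with 63 bases between the match and the start.
Nanog: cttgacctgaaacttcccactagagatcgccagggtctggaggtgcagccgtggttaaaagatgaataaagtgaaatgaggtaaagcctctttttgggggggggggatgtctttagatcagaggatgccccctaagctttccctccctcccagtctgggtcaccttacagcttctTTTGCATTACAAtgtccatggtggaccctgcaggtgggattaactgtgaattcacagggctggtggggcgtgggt
These letters, searched on both strands, were in 0.0365% of 32851 promoter windows of 300 bases. Among naive factors with a promoter in the table, 1 of 11 held them. The match describes the sequence and says nothing of binding in these cells.

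Genes that mark pluripotency more generally moved less. Of 16 such genes 3 were lower DEGs, beside 1.27% of all genes, and none was higher, and their median log2 fold change was -0.06. Pou5f1, which encodes OCT4, was at 24650, 22810 and 21240 in siGLO and at 15900, 18160 and 17370 in siStag2, a fall to 74.9% of the siGLO mean without overlap (log2 fold change -0.42 ± 0.082 (SE), adjusted p = 0.00319). It missed the threshold without siStag2 replicate 1 (-0.37, adjusted p = 0.0306) and without siStag2 replicate 3, siGLO replicate 1 or siGLO replicate 2 (-0.42, -0.36 and -0.42). Dppa5a, an RNA-binding protein abundant in mESCs, fell by 0.61 and Fgf4, the main FGF ligand of mESCs, fell by 0.55 on the log2 scale, and both missed the threshold without siStag2 replicate 1 (adjusted p = 0.0166 and 0.0271). Sox2 was at 8656, 7375 and 7400 in siGLO and at 6954, 6682 and 6551 in siStag2, which do not overlap but did not pass the test (log2 fold change -0.21 ± 0.072 (SE), adjusted p = 0.0638).

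Few markers of later states were DEGs. None of 19 formative and primed state genes was a DEG (median log2 fold change 0.18), and with the block 3 were higher, Fzd7 (0.35), Lef1 (0.92) and Sox3 (0.76). Fgf5, the usual primed marker, was at only 37.6, 26.2 and 17.4 in siGLO and at 42.9, 53.9 and 47 in siStag2, and its libraries did not overlap (log2 fold change 0.82 ± 0.47 (SE), adjusted p = 0.293). Lef1, a nuclear partner of beta-catenin, was at 446, 306 and 293 in siGLO and at 818, 596 and 565 in siStag2 (log2 fold change 0.93 ± 0.24 (SE), adjusted p = 0.0233). Of 16 neuroectoderm genes, Neurod1 (-1.06) and Olig2 (-0.78) were lower DEGs, beside 1.27% of all genes. Pax6 and Nes, also neural, had values of 0.76 (adjusted p = 0.0865) and 0.52 (adjusted p = 0.105), and Nes passed with the block (0.55, adjusted p = 0.00092).

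All 18 primitive endoderm genes had a negative log2 fold change, with a median of -0.57 beside 0.01 over all genes, but none was a DEG. The siGLO libraries differed among themselves here. Gata6 was at 277, 141 and 134 in siGLO and at 76.1, 87.1 and 111 in siStag2, so siGLO replicate 1 was far above both other siGLO libraries (log2 fold change -1.0 ± 0.47 (SE), adjusted p = 0.2). With the block Gata6 was at -0.91 (adjusted p = 0.00847) and Sox7 at -0.88 (adjusted p = 0.00767), and no other gene of the list passed. Sox17 was at 146, 70.2 and 49.2 in siGLO and at 45.9, 57.3 and 45 in siStag2, which overlap. The defining markers of mesoderm, trophoblast and fibroblasts were low in all 6 libraries, at a sum of at most 8.38, 8.22 and 67.7 CPM for 3, 3 and 6 genes, and no marker of these cell types was a DEG. The 3 ectoderm markers summed to between 54.9 and 74.6 CPM in siGLO and between 80.4 and 94.7 in siStag2, and the 4 endoderm markers to between 21.9 and 51.1 and between 19.7 and 20.2, again with no DEG. The part of such cells in the results was not tested. The 8 mESC markers summed to between 5630 and 6150 CPM in siGLO and between 4280 and 4940 in siStag2, and 5 of them were lower DEGs.

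A few genes of the contractile cytoskeleton rose. Many genes of this kind are targets of SRF, a transcription factor that binds CArG boxes and is activated through actin dynamics. Of 30 muscle actin and SRF target genes, 5 were higher DEGs and none was lower, beside 0.969% of all genes called higher, and 28 of the 30 had a positive log2 fold change (median 0.29). With the block 8 were higher, the additions being Filip1l (1.06), Srf itself (0.26) and Tpm4, a tropomyosin (0.30). Without siStag2 replicate 1, 2 were DEGs, and without siGLO replicate 1 there was 1, which was Myl9. The length correction left 5, of which 4 were the same genes. This list too was chosen with earlier results of these data known.

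Actc1, cardiac alpha-actin, had the largest increase of the genes named here, from 28.4, 76.7 and 48.2 in siGLO to 259.6, 316 and 203 in siStag2. The lowest siStag2 library was far above the highest siGLO library, although the siGLO libraries varied, and the level was 5.08 times the siGLO mean (log2 fold change 2.33 ± 0.41 (SE), adjusted p = 0.0025). It missed the threshold without siStag2 replicate 1 (2.33, adjusted p = 0.012) and without siGLO replicate 1 (2.05, adjusted p = 0.0158). Actins share much of their coding sequence, so reads of the actin genes could be split between them. The related muscle actins Acta1 and Acta2 were not DEGs. Acta2 was at 559.7, 1522 and 1238 in siGLO and at 2294, 2914 and 2556 in siStag2 (log2 fold change 1.22 ± 0.40 (SE), adjusted p = 0.0729).

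Cnn1, the smooth muscle calponin, was at 431, 603 and 497 in siGLO and 1034, 1268 and 1094 in siStag2 (log2 fold change 1.15 ± 0.19 (SE), adjusted p = 0.00161). Myl9, the regulatory light chain of non-muscle and smooth muscle myosin, was at 513, 730.4 and 560 in siGLO and 1224, 1394 and 1148 in siStag2 (log2 fold change 1.06 ± 0.17 (SE), adjusted p = 0.00109). Cnn1 missed the threshold without siGLO replicate 1 (1.04, adjusted p = 0.011). For both genes the siGLO replicate 2 library was the highest of its group and the siStag2 replicate 2 library was too. Vcl, the focal adhesion protein vinculin, was at 3931, 4488 and 4492 in siGLO and 6796, 6056 and 5647 in siStag2 (log2 fold change 0.52 ± 0.092 (SE), adjusted p = 0.00163). Flna, the actin crosslinker filamin A, was at 16360, 19010 and 19210 in siGLO and 26730, 25320 and 23700 in siStag2 (log2 fold change 0.47 ± 0.088 (SE), adjusted p = 0.00246). Vcl and Flna missed the threshold without siStag2 replicate 1 (0.44 and 0.43, adjusted p = 0.0174 and 0.0189), and Flna, a long transcript, also with the length correction (0.30, adjusted p = 0.0275). Of the immediate early genes in the list none was a DEG, with log2 fold changes of -0.67 for Fos (adjusted p = 0.173), -0.99 for Fosb (adjusted p = 0.192), 0.00 for Egr1 (adjusted p = 0.998), 0.05 for Ier2 (adjusted p = 0.815) and 0.30 for Junb (adjusted p = 0.43). Egr2, a zinc finger factor at low counts, was at 5.08, 4.68 and 8.68 in siGLO and 10.7, 19.5 and 18.4 in siStag2, without overlap (log2 fold change 1.37 ± 0.50 (SE), adjusted p = 0.0864). Cnn1 and Myl9 were also higher in Pds5a-KO siGLO than in WT siGLO mESCs (log2 fold change 2.14 and 1.66), while Actc1 was at -0.21 (adjusted p = 0.768) in that comparison.

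**Figure D4:**
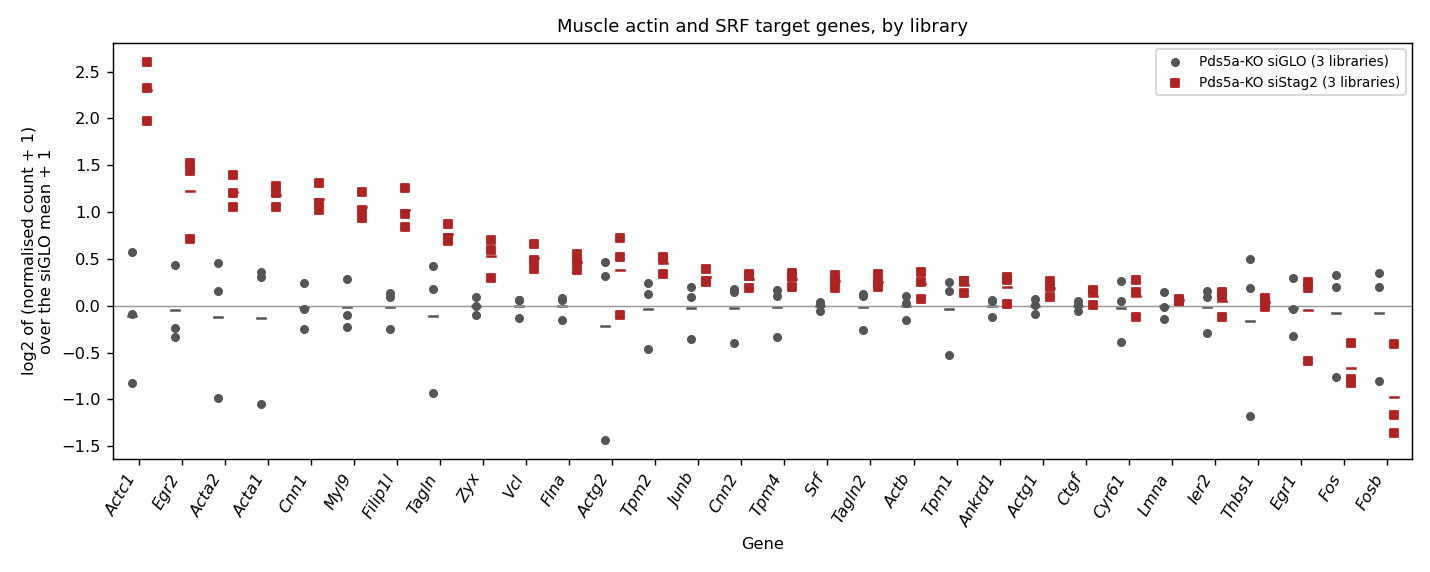
Muscle actin and SRF target genes, ordered by log2 fold change, as the log2 of each library's normalised count plus 1 over the siGLO mean plus 1. Circles are the 3 siGLO and squares the 3 siStag2 libraries, with bars for means. Actc1, Cnn1 and Myl9 have 3 siStag2 libraries above all siGLO libraries, and Fos and Fosb lie below 0 in siStag2.

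The promoters of these genes are shown because CArG boxes are the sites through which SRF acts on them, a search made after the values were seen. A CArG box, 2 C, 6 A or T and 2 G on either strand, was in the RefSeq promoter windows of Actc1, Myl9 and Vcl, and not in those of Cnn1 and Flna, of the 5 genes. The 250 bases before each start are printed 5′ to 3′ with the box in capitals, for Actc1 at chr2:114052876-114053125 (minus strand), Myl9 at chr2:156775214-156775463 (plus strand) and Vcl at chr14:20929148-20929397 (plus strand), all on GRCm38.p6.
Actc1: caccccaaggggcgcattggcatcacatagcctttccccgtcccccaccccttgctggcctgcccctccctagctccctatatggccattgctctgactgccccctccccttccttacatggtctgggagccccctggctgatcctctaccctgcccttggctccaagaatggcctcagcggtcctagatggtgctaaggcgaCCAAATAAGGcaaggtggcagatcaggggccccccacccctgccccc
Myl9: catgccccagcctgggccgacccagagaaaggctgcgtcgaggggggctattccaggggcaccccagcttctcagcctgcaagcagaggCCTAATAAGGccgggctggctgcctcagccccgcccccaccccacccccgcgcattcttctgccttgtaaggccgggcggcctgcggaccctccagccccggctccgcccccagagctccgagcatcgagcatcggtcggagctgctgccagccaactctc
Vcl: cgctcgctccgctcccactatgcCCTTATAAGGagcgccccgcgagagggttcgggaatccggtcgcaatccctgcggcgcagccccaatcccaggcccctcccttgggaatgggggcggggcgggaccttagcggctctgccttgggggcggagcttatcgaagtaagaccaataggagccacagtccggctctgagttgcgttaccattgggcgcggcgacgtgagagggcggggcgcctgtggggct
Between the box and the start lie 37 bases in Actc1, 151 in Myl9 and 217 in Vcl. Of the list's 22 genes with a promoter in the table, 9 held a box, against 1.81% of 27025 genes. The list was drawn up from known SRF targets, so a high share follows from its making, and boxes outside these windows were not searched.

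Other genes among the largest increases included Fermt1, Pdlim3 and Mmp25. Fermt1, the integrin activator kindlin-1, was at 98.5, 119.7 and 119.5 in siGLO and 320.1, 260.2 and 219.7 in siStag2 (log2 fold change 1.24 ± 0.19 (SE), adjusted p = 0.000401), and stayed a DEG whichever library was left out. Pdlim3, a LIM protein of actin filaments, was at 85.3, 121 and 114 in siGLO and 202, 229 and 229.9 in siStag2 (log2 fold change 1.04 ± 0.20 (SE), adjusted p = 0.0025). Pdlim3 missed the threshold without siStag2 replicate 3 (adjusted p = 0.0102) and without siGLO replicate 1 (0.0167). Mmp25, a membrane-type matrix metalloproteinase, rose to 2.3 times its siGLO mean but missed the threshold without siStag2 replicate 1 (adjusted p = 0.0165). In the list of 27 measured epithelial and mesenchymal adhesion genes, Cdh1 and Esrp1 were higher DEGs, beside 0.969% of all genes, and none was lower. Cdh1 encodes E-cadherin and Esrp1 is an epithelial splicing regulator. Zeb2, of the mesenchymal part of the list, was at 0.90 (adjusted p = 0.0126) and passed with the block (0.91, adjusted p = 0.00317). Cdh1 was at 10150, 10690 and 11260 in siGLO and 14510, 13100 and 13490 in siStag2 (log2 fold change 0.36 ± 0.082 (SE), adjusted p = 0.00938). The rise was small, and Cdh1 missed the threshold when any 1 of the 6 libraries was left out (adjusted p between 0.0108 and 0.0632). None of 35 collagen, laminin and integrin genes was a DEG, and 1 was higher with the block.

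Few genes of the Nodal, activin and TGF beta pathway passed the test. These ligands signal through SMAD2 and SMAD3 and are active in mESCs. Of 27 measured genes 3 were higher and 1 was lower, beside 0.969% and 1.27% of all genes. Inhbb, the activin beta B subunit, had the largest fall of all genes named, from 309.8, 318 and 334 in siGLO to 53.7, 74.5 and 96.1 in siStag2, or 23.3% of the siGLO mean (log2 fold change -2.10 ± 0.27 (SE), adjusted p = 0.00026). Ltbp1, which holds latent TGF beta in the matrix, was at 392, 617 and 717 in siGLO and 1238, 1153 and 1064 in siStag2 (log2 fold change 1.0 ± 0.18 (SE), adjusted p = 0.00324). Skil, a SMAD corepressor and target, rose by a log2 fold change of 0.40. Ltbp1 and Skil missed the threshold without siStag2 replicate 1 (0.94 and 0.40, adjusted p = 0.0251 and 0.0109) and without siGLO replicate 2 (adjusted p = 0.0116 and 0.0181), whereas Inhbb stayed a DEG without each library. Lefty1 and Lefty2, feedback inhibitors of Nodal, had values of 0.46 and 0.45 and passed only with the block (adjusted p = 0.000253 and 0.0029). Nodal itself was at 0.15 (adjusted p = 0.347).

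In the LIF and STAT3 pathway, which sustains self-renewal, 3 of 20 genes were lower and 2 were higher, beside 1.27% and 0.969% of all genes. The lower ones included Klf4 and Sgk1, a serum-induced kinase (log2 fold change -0.70 ± 0.14 (SE), adjusted p = 0.00431). Stat3 was at 1667, 1601 and 1706 in siGLO and 2201, 1950 and 2008 in siStag2 (log2 fold change 0.31 ± 0.064 (SE), adjusted p = 0.00499), and Bcl3, a coactivator of NF-kappaB induced by LIF, was at 424, 495 and 453 in siGLO and 664, 629 and 695 in siStag2 (log2 fold change 0.54 ± 0.11 (SE), adjusted p = 0.00566). So the Stat3 transcript rose while Klf4 fell. Ly6g6e, of the same list, was lower with the block (-0.75, adjusted p = 0.00875). Of Klf4, Sgk1, Stat3 and Bcl3, only Klf4 stayed a DEG without siStag2 replicate 1, and Stat3 also missed the threshold with the length correction (0.20, adjusted p = 0.0375). In the FGF and ERK pathway Fgf4 and Fgf17, both ligands, were the lower DEGs of 26 genes, beside 1.27% of all genes. None was higher without the block, and with it Etv1 (0.875, adjusted p = 0.00404) and Spred2 (0.345, adjusted p = 0.00382) were higher. Fgf17 was at 412, 539 and 448 in siGLO and 264, 297 and 254 in siStag2 (log2 fold change -0.78 ± 0.13 (SE), adjusted p = 0.0012). Epha4, an ephrin receptor, was at 391, 412 and 470.4 in siGLO and 201, 201 and 267 in siStag2 (log2 fold change -0.93 ± 0.14 (SE), adjusted p = 0.000311), and it was the only DEG of 48 ephrin, semaphorin and axon guidance genes, with 3 lower under the block. Notum, a secreted enzyme that inactivates Wnt proteins and is itself a Wnt target, was at -0.86, the only DEG of 22 mesoderm and Wnt target genes. Lef1, also in that list, went the other way and passed with the block (0.925, adjusted p = 0.0084). Tfap2c, a transcription factor of trophoblast and germ cells, was at -0.68, the only DEG of 17 trophoblast genes.

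The remaining large decreases were spread over functions. Pou2f3, a POU factor known from chemosensory tuft cells, was at 62, 111 and 112 in siGLO and 19.5, 29.8 and 27.6 in siStag2 (log2 fold change -1.90 ± 0.27 (SE), adjusted p = 0.000186). Myo1f, an unconventional myosin, was at 486, 387 and 388 in siGLO and 93.7, 174 and 164 in siStag2 (log2 fold change -1.55 ± 0.24 (SE), adjusted p = 0.000979). Lgals9, which encodes galectin-9, was at 363, 254 and 252 in siGLO and 96.6, 104 and 110.4 in siStag2 (log2 fold change -1.48 ± 0.19 (SE), adjusted p = 6.23e-05). These 3 genes stayed DEGs without each library, as did Calcoco2, an autophagy receptor (-1.31), and Gm7325, the muscle fusion peptide gene also named Mymx (-1.29). Hopx, a small homeodomain protein, had 103, 48.6 and 62.6 in siGLO and 35.1, 17.2 and 34.7 in siStag2, and 4 of the 6 fits without a library lost it. Accsl, a gene of unclear role related to aminotransferases, fell to 42.3% of its siGLO mean, and lost its call without siStag2 replicate 1 (-0.92, adjusted p = 0.011).

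Lrriq4 and Lrrc34 fell together and lie next to each other. Both encode proteins with leucine-rich repeats. Lrrc34 spans 30624267 to 30647869 on the minus strand of chromosome 3, and Lrriq4 spans 30644507 to 30672431 on the plus strand, so the genes overlap. Lrrc34 was at 454, 481 and 462 in siGLO and 129.8, 206 and 231 in siStag2 (log2 fold change -1.30 ± 0.18 (SE), adjusted p = 0.000231), and Lrriq4 was at 78.2, 92.6 and 119 in siGLO and 26.4, 20.6 and 53.1 in siStag2 (log2 fold change -1.52 ± 0.29 (SE), adjusted p = 0.00304). The use of strand in the counting is not given in the sources used here, so reads of one gene may be counted for the other. Lrrc34 stayed a DEG without each library, and Lrriq4 lost its call without siStag2 replicate 1 (-1.37, adjusted p = 0.0327), siStag2 replicate 2, siGLO replicate 2 or siGLO replicate 3.

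The lower DEGs with the smallest p after Stag2 were Sod2, Khdc3, Ccnd3 and Sept1. Sod2, the mitochondrial superoxide dismutase, was at 2861, 2616 and 2601 in siGLO and 1412, 1589 and 1677 in siStag2 (log2 fold change -0.79 ± 0.067 (SE), adjusted p = 1.5e-07). Khdc3, an oocyte and mESC protein known as FILIA that guards genome stability, was at 1232, 1190 and 1167 in siGLO and 441, 542 and 541 in siStag2 (log2 fold change -1.24 ± 0.11 (SE), adjusted p = 1.75e-07). Ccnd3, the G1 cyclin D3, was at 3887, 3995 and 3896 in siGLO and 2149, 2379 and 2416 in siStag2 (log2 fold change -0.76 ± 0.07 (SE), adjusted p = 3.74e-07). In all 3 genes the replicates of a group were close and the groups were far apart, which a choice by smallest p favours. Each stayed a DEG without every library in turn and with the length correction. Sept1, a septin, fell to 53.2% of its siGLO mean. Its neighbour Mylpf, 149 bases away and on the other strand, was at -1.17 as well.

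Among the higher DEGs with the smallest p were Ptpn13, a large protein tyrosine phosphatase, Tbc1d9, a Rab GTPase-activating protein, Ctsc, the lysosomal protease cathepsin C, and Gatsl2, now named Castor2, which takes part in arginine sensing by mTORC1. Tbc1d9 was at 364, 322 and 379.8 in siGLO and 674, 596 and 701 in siStag2 (log2 fold change 0.89 ± 0.12 (SE), adjusted p = 0.000154). Gatsl2 was at 152, 212 and 224 in siGLO and 393, 379.5 and 393 in siStag2 (log2 fold change 0.98 ± 0.14 (SE), adjusted p = 0.000231). Ptpn13 and Ctsc rose to 1.55 and 1.52 times their siGLO means. All 4 stayed DEGs without each library. Slc19a3, a thiamine transporter, was at 32.5, 30.9 and 35.7 in siGLO and 75.2, 72.2 and 112 in siStag2, an increase of 2.62 times (log2 fold change 1.39 ± 0.24 (SE), adjusted p = 0.00109). Of the other large increases, Chst15, a chondroitin sulfotransferase, rose to 2.21 times, F5, coagulation factor V, to 2.03 times and Rrad, a small GTPase of muscle, to 2.17 times the siGLO mean. Rrad lost its call in 5 of the 6 fits without a library, F5 in 4 and Chst15 without siStag2 replicate 1 (adjusted p = 0.0103).

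Few growth and stress genes were DEGs. In the list of 21 Myc and G1 cyclin genes Ccnd3 and Ccne1, which encodes cyclin E1, were lower, beside 1.27% of all genes. Ccne1 was at -0.34 (adjusted p = 0.00926) and lost its call in 5 of the 6 fits without a library. Max was lower too with the block (-0.27, adjusted p = 0.006). Asns, which makes asparagine, Psph, of serine synthesis, and Cth, of cysteine synthesis, were the DEGs among 30 amino acid stress and unfolded protein genes. All were lower (-0.36, -0.54 and -0.59), beside 1.27% of all genes called lower. Of the 30, 28 had a negative value, beside a median log2 fold change of 0.01 over all genes. Without siStag2 replicate 1 none of these 3 DEGs passed (adjusted p = 0.0284, 0.0532 and 0.0322). Pck2, of the same list, was lower with the block (-0.40, adjusted p = 0.00315). No DEG was found among 38 DNA replication genes, 37 mitosis genes, 26 p53 target genes or 34 recombination and Fanconi genes, whose medians lay between -0.09 and 0.06.

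Of 42 nuclear genes of oxidative phosphorylation, 42 had a negative log2 fold change (median -0.20, beside 0.01 over all genes). Cox5a was the only DEG (-0.37, adjusted p = 0.00499), beside 1.27% of all genes called lower, with 3 lower under the block. Of 55 cytosolic ribosomal protein genes 53 were negative (median -0.18) and none was a DEG. Both lists hold short transcripts, with median lengths of 1232 and 1109 bases. The median shift of the ribosomal protein genes from the siGLO mean ranged from -0.41 to 0.03 over the 3 siStag2 libraries. Sterol and fatty acid genes, with a median length of 3814.5 bases, were positive in 30 of 32 (median 0.20). None of these was a DEG, and 3 were higher and 1 lower with the block.

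Immune-related genes showed Ifitm1 and Ifitm2 as lower DEGs among 29 interferon-stimulated genes, beside 1.27% of all genes. These membrane proteins restrict viral entry and are also expressed in pluripotent and germ cells. Ifitm1 was at 3603, 3462 and 2973 in siGLO and 1296, 1989 and 1741 in siStag2 (log2 fold change -1.0 ± 0.18 (SE), adjusted p = 0.00381), and Ifitm2 was at 6158, 6490 and 5725 in siGLO and 3612, 4241 and 4065 in siStag2 (log2 fold change -0.62 ± 0.095 (SE), adjusted p = 0.000364). The family shares sequence, so reads could be split between its members. Ifitm1 lost its call without siStag2 replicate 1 (-0.85, adjusted p = 0.0274), and Ifitm2 kept it without each library. With the block 3 further genes of the list were higher. Tdrd1, a piRNA pathway gene (0.86), was the only DEG of 35 germline genes, and Med12l, a paralog of the Mediator kinase module subunit, the only one of 33 Mediator genes (0.84). No DEG was found among 30 Polycomb genes, 22 Hox genes, 31 imprinted genes, 20 protocadherins, 24 BMP pathway genes or 21 replication-dependent histone genes. With the block Meg3 of the imprinted genes (0.50, adjusted p = 0.00763) and Pcdh19 of the protocadherins (1.34, adjusted p = 0.00682) were higher.

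The calls lost when 1 library was left out are given here by library, all with their sign kept. They cover the DEGs named by size or p-value, as markers, as examples of a list or for a direct difference. Without siStag2 replicate 1 these were Accsl, Actc1, Asns, Bcl3, Ccne1, Cdh1, Chst15, Clic5, Cnga3, Cox5a, Cth, Cyp2b23, Dppa5a, Esrp1, F5, Fgf17, Fgf4, Flna, Hopx, Ifitm1, Lrriq4, Ltbp1, Med12l, Mmp25, Nanog, Neurod1, Nexn, Notum, Pknox2, Pou5f1, Psph, Rrad, Sgk1, Skil, Stat3, Tdrd1, Tfap2c and Vcl. Without siStag2 replicate 2 they were Ccne1, Cdh1, Clic5, Cth, F5, Hopx, Lrriq4, Nanog, Olig2, Rrad, Sgk1 and Tfap2c, and without siStag2 replicate 3 they were Bcl3, Ccne1, Cdh1, Clic5, Cnga3, Cox5a, Cth, Cyp2b23, Esrp1, Hopx, Ifitm1, Med12l, Nanog, Notum, Olig2, Pdlim3, Pknox2, Pou5f1, Psph, Rrad, Sgk1, Skil, Stat3, Tdrd1 and Tfap2c. Leaving out siGLO replicate 1 lost Actc1, Bcl3, Ccne1, Cdh1, Clic5, Cnga3, Cnn1, Cox5a, Cth, Esrp1, F5, Fgf4, Flna, Hopx, Ifitm1, Med12l, Nanog, Neurod1, Nexn, Notum, Olig2, Pdlim3, Pou5f1, Psph, Rrad, Sgk1, Stat3, Tdrd1 and Vcl. Leaving out siGLO replicate 2 lost Accsl, Asns, Bcl3, Ccne1, Cdh1, Clic5, Cox5a, Cth, Cyp2b23, Dppa5a, Esrp1, Fgf17, Fgf4, Ifitm1, Lrriq4, Ltbp1, Med12l, Nanog, Olig2, Pknox2, Pou5f1, Psph, Rrad, Sgk1, Skil, Stat3 and Tfap2c, and leaving out siGLO replicate 3 lost Bcl3, Cdh1, Clic5, Cox5a, Cyp2b23, F5, Lrriq4, Nanog and Tfap2c. Of 70 such DEGs, 28 stayed past the threshold in all 6 of these fits. Such a fit also has fewer libraries, so a lost call does not by itself show a smaller change.

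The direct comparison with siStag1 asked where the knockdowns of both STAG paralogs differed in Pds5a-KO mESCs. Between siStag2 and siStag1, 59 genes passed (0.394% of 14963), 25 higher (0.167%) and 34 lower (0.227%) in siStag2. Each single library left out reduced this count, to between 6 and 18, the lowest without siStag2 replicate 1. Of the DEGs of siStag2 against siGLO, 14 of the 145 higher and 18 of the 190 lower also differed between the knockdowns. The effects of siStag1 and siStag2 over siGLO share the siGLO libraries, so they are given side by side. Stag1 averaged 574 ± 59.7 (SD, n = 3) in siStag1 and 2428 ± 118 in siGLO. Stag2 had a difference of -2.23 (siStag2 minus siStag1, log2).

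Actc1 showed the largest such increase. It averaged 259.8 ± 56.5 (SD, n = 3) in siStag2, 42.5 ± 19.2 in siStag1 and 51.1 ± 24.3 in siGLO, and the difference between the knockdowns was 2.62 ± 0.42 (SE, adjusted p = 0.00549). Clic5, a chloride channel protein of actin-rich membranes (1.37), F5 (1.16) and Cyp2b23, a cytochrome P450 (1.06), were also higher than in siStag1. Pou2f3 (-1.48), Lgals9 (-0.97) and Gpx2, a glutathione peroxidase (-0.90), were lower. Gpx2 averaged 238 ± 30.1 in siStag2, 444 ± 25.9 in siStag1 and 413 ± 40.8 in siGLO. Lgals9 lay at the threshold (adjusted p = 0.00996). Most of these calls were lost when 1 library was left out, although the differences kept their sign (Actc1 between 2.29 and 2.91). Those of Actc1 and Lgals9 were lost whichever of the 6 libraries was left out (adjusted p up to 0.0292 and 0.0917), and Lgals9 also missed the threshold with RLE normalization, library size only, a minimum of 10 counts and the length correction. The calls of Clic5, F5, Cyp2b23 and Pou2f3 were lost in 5 of the 6 fits (adjusted p up to 0.018, 0.0464, 0.0252 and 0.0484), and those of F5 and Pou2f3 also in a fit to the groups compared only. Clic5 kept its call without siStag2 replicate 2, F5 without siStag1 replicate 2, and Cyp2b23 and Pou2f3 without siStag1 replicate 1. Gpx2 kept its call in all 6 fits.

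Most naive factors were lower in value in siStag2 than in siStag1, but few of the differences passed the test. Of the 18, Klf4 alone passed, lower in siStag2 (-0.43 ± 0.078, adjusted p = 0.00613), and 16 were lower in value (median -0.25). Against siGLO the median log2 fold change of the list was -0.61 for siStag2 and -0.37 for siStag1. The summed level was between 30410 and 35090 normalised counts in siStag1, above the 27580 to 27900 of siStag2. Pou5f1 was also lower in siStag2 than in siStag1 (-0.41, adjusted p = 0.0095), the only such gene among the general pluripotency genes. Of the 30 muscle actin and SRF target genes, Actc1 alone differed from siStag1, and the list's median difference was 0.32. In the Wnt target list Axin2 was higher in siStag2 by 0.94 on the log2 scale (adjusted p = 0.00696), although it was no DEG against siGLO (0.43, adjusted p = 0.113). The differences of Klf4, Pou5f1 and Axin2 from siStag1 also missed the threshold whichever of the 6 libraries was left out (adjusted p up to 0.0389, 0.067 and 0.0464), with their signs kept.

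Between siStag2 and siPds5b, 593 genes passed (3.96%), 288 higher (1.92%) and 305 lower (2.04%) in siStag2, and without single libraries there were between 272 and 474, the lowest without siStag2 replicate 1. Of the 335 DEGs of siStag2 against siGLO, 57 differed from siPds5b. Pds5b averaged 903 ± 169 in siPds5b and 2366 ± 273 in siGLO. The naive factors were higher in siStag2 than in siPds5b for Esrrb (0.71), Klf4 (0.92) and Nr5a2 (0.71), with none lower and a median difference of 0.37. Klf4 averaged 1165 ± 64.2 (SD, n = 3) in siStag2, 616 ± 42.3 in siPds5b and 1652 ± 48.3 in siGLO. Fgf17 was at 272 ± 22.2 in siStag2 and 117 ± 14.2 in siPds5b (1.21 ± 0.15, adjusted p = 1.01e-05). Bcl3 and Nexn, an actin-binding protein of muscle, were above siGLO in siStag2 and below it in siPds5b in value, with differences of 0.91 and 1.34. In the other direction Cnga3, a cyclic nucleotide-gated channel, averaged 105 ± 5.82 in siStag2 and 273 ± 26.6 in siPds5b (-1.38), and Ifitm1 (-1.08) and Pknox2, a homeobox gene (-0.97), were lower too. Pknox2 lost its call without siStag2 replicate 1, siStag2 replicate 3 or siPds5b replicate 1 (adjusted p up to 0.0154), and the other differences from siPds5b named here kept theirs in all 6 fits.

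The clearest separation from siPds5b was in genes of the two-cell-like state, a rare state of mESC cultures that expresses genes of the early embryo such as the Zscan4 family. Of 22 such genes none was a DEG of siStag2 against siGLO, and 18 were lower in siStag2 than in siPds5b, beside 2.04% of all genes (median difference -3.03, also with Tdpoz1, which had no count in siStag2, set to its bound). The 6 Zscan4 genes, summed because they share reads, had 398, 337 and 272 normalised counts in siGLO replicates 1 to 3 and 257, 335 and 169 in siStag2. They had 188, 460 and 326 in siStag1, 2548, 2433 and 1356 in siPds5b and 3206, 2068 and 2765 in WT siGLO. The siStag2, siStag1 and siGLO libraries of the knockout overlapped, and all of them were below the siPds5b and WT libraries. Usp17l, Tdpoz and Zscan4 genes are families of near-identical copies, so single members are uncertain. Hox genes were also lower in value than in siPds5b in 22 of 22, with 3 past the threshold.

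**Figure D5:**
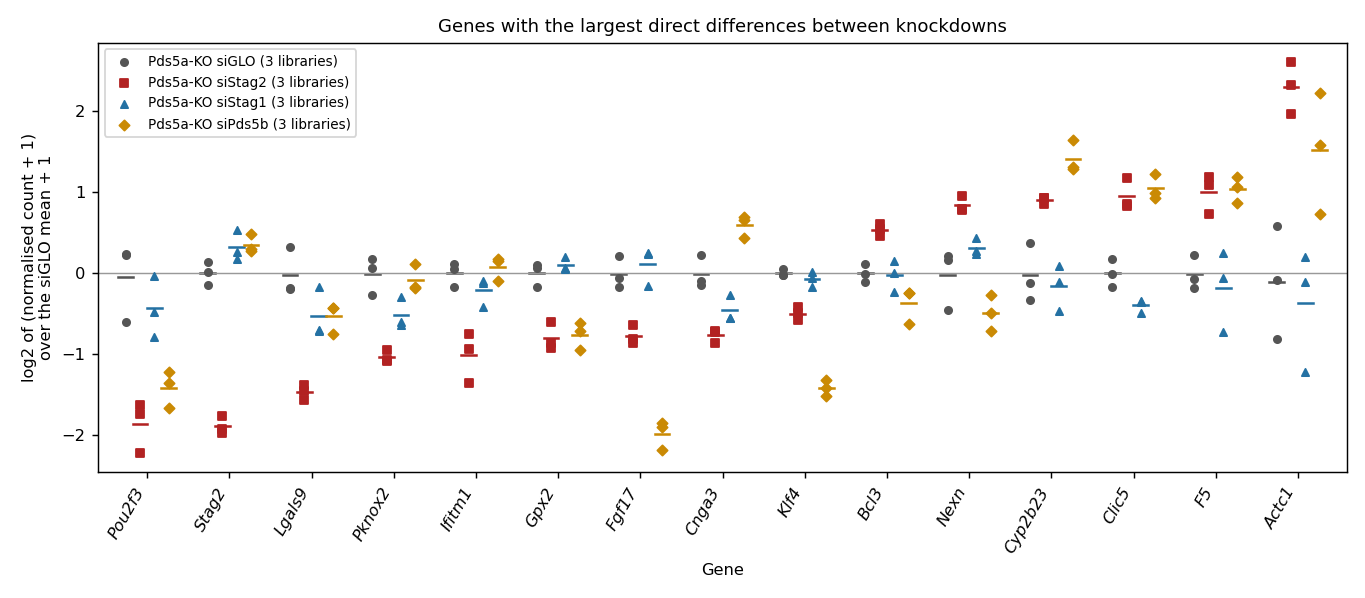
The 15 DEGs of siStag2 with the largest direct differences from siStag1 or siPds5b, as the log2 of each library's normalised count plus 1 over the siGLO mean plus 1. Circles are siGLO, squares siStag2, triangles siStag1 and diamonds siPds5b, all in Pds5a-KO mESCs with 3 libraries each and bars for means. Stag2 is low in siStag2 alone, Actc1 is near or below 0 in siStag1, and Klf4 and Fgf17 are lowest in siPds5b.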

How the data were processed

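RNA from 21 libraries of mESCs, 3 for each of 7 conditions, was poly-A selected and sequenced. The authors aligned reads with STAR to mm10 and deposited raw counts for 23412 gene symbols, one file per library. The counting tool, its annotation and its use of strand are not given in the sources used here. Total counts were between 17311090 and 23989198.

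Counts were fitted with edgeR 4.0.16 (R 4.3.3; quasi-likelihood F test, robust, TMM, filterByExpr) on all 21 libraries, which share 1 estimate of spread. P-values were adjusted by Benjamini-Hochberg over the 14963 genes tested, and an adjusted p under 0.01 was called. The SE is the log2 fold change divided by the square root of F. The labels do not say that replicates came from separate cultures, so p-values measure the spread between these libraries. No replicates were identical. Replicate numbers were taken to pair siStag2 with siGLO because deviations from the group mean correlated by 0.127, 0.276 and 0.244 over 11103 genes, above a minimum of 0.1 for each pair. The labels give no meaning for the numbers, so the pairing comes from the data.

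Named genes were the 12 largest increases and decreases and the 5 with the smallest p in each direction. These were chosen among DEGs with a mean log2 CPM (counts scaled to library depth) of at least 1. Their siStag2 and siGLO libraries also had to be without overlap, so the lack of overlap in these genes comes from the choice. Up to 4 examples per list and direction, the cohesin genes and the markers were added. So were the 4 largest direct differences in each direction, among DEGs whose libraries did not overlap between the knockdowns compared. Members of 5 short lists are also named. Members and lists were chosen with earlier results of these data known. Alternatives were DESeq2 1.42.0, RLE, library size, other filters and thresholds, the groups alone, the block and each library left out. The length correction, a loess trend on log2 transcript length (longest GENCODE vM21 transcript, 99.1% of genes tested), was added after seeing the data, as were the motif searches. Scripts were tested on simulated data. Some genes in these counts are not reported here by name. Promoters came from a RefSeq table (GRCm38.p6), with 67 of 98 named genes matched, and positions from GENCODE.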

Additional observations from a re-analysis of the deposited data

How the results depend on the processing

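Counts of DEGs moved with the test. DESeq2 gave 775 (391 higher, 384 lower), a fit to the groups compared only 99 (33 higher, 66 lower), the replicate block 677 (363 higher, 314 lower), the block with the length correction 678 (316 higher, 362 lower), an adjusted p under 0.05 1196 (615 higher, 581 lower) and a size floor of 1 on the log2 scale 47 (18 higher, 29 lower). Without single libraries there were between 68 and 375 DEGs, with 13 and 167 higher and 55 and 208 lower as the limits, between 7 and 9 naive factors lower and between 1 and 5 muscle actin and SRF genes higher. Above that floor, 3 naive factors and 3 SRF genes were called. SRF genes numbered 3 with the groups compared only, 8 with the block and 10 with block and length correction. Against siStag1 the counts under DESeq2, the groups only, the block, block with length, 0.05 and a size of 1 were 281, 93, 276, 412, 358 and 15, and without single libraries between 6 and 18. Against siPds5b they were 264 (groups only), 891, 1077, 1365 and 166, and between 272 and 474. Replicate numbers were not taken to pair siStag2 with siStag1 or siPds5b, because not every same-number correlation reached the minimum of 0.1. These ran from -0.023 to 0.314 with siStag1 and from 0.067 to 0.364 with siPds5b. With siPds5b each was still above the other-number correlations of its siStag2 library, which ran from -0.328 to 0.15. With siStag1 this held for siStag2 replicate 3 only. The block counts of these comparisons are therefore not taken as those of paired libraries. Among the named DEGs and cohesin genes tested, the block moved Nes (0.55) and Gata6 (-0.91) past the threshold, beside the list members given above with the block, and changed no other call. The cause of these moves was not tested.

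Cohesin genes near 0 changed sign. With the length correction, alone and with the block, Pds5a was at -0.111 and -0.105, Smc1a at -0.021 and -0.018, Smc3 at -0.019 and -0.017, Rec8 at 0.017 and 0.02, and Sgol2 at -0.047 and -0.049. Hdac8 was at 0 with the groups only and -0.002 without a filter. Without single libraries the limits were -0.014 and 0.16 for Pds5a, -0.044 and 0.068 for Hdac8, -0.132 and 0.044 for Rec8, -0.083 and 0.085 for Sgol2, -0.517 and 0.091 for Smc1b, -0.135 and 0.9 for Rad21l, -0.146 and 0.005 for Wapal and -0.02 and 0.106 for Ctcf. Of 110 named results, 108 kept sign and call with RLE normalization, 107 with library size only, 110 with DESeq2, 90 with the length correction and 61 without siStag2 replicate 1. The SE of a log2 fold change was 0.497 for Egr2, whose 6 libraries held between 4.68 and 19.5 normalised counts, and 0.067 for Sod2, with between 1412 and 2861.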

Other observations

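Genes that fell lay next to another gene that fell more often than other genes did. Of 189 lower DEGs with a position, 31 (16.4%) had an adjacent tested gene that was also a lower DEG, against 341 of 14636 other genes (2.33%) that had such a neighbour. Of 145 higher DEGs, 4 (2.76%) had an adjacent higher DEG, against 284 of 14680 others (1.93%). No test was made of these shares. The 16 lower pairs included Lrrc34 with Lrriq4 and Nme7 with Atp1b1, and the genes of each of these pairs overlap. Others were Mylpf and Sept1, 149 bases apart, and Slc29a1, a nucleoside transporter, and Gm7325, 1365 bases apart. Farther apart were Dppa5a and Ooep, both of the early embryo, at 7932 bases, Fez1 and Pknox2, at 12058 bases, and Mrpl39 and Jam2, at 38381 bases. The 2 higher pairs were Tmem164 with Ammecr1 and Ltbp1 with Rasgrp3. Because the use of strand in counting is not given, reads of overlapping or close genes may not be separable.

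A CTCF core motif, CC, any 3 bases, AG, any 2 bases and GGC on either strand, was in the promoter windows of 6 of the 67 named genes with a promoter (8.96%) and of 9.84% of 27025 genes. The 6 were F5, Lrriq4, Med12l, Pds5b, Sox2 and Stat3.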
